A study of Sus scrofa domesticus with 34 samples.

Results

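Transcripts of the receptors for glutamate and GABA were followed gene by gene in 34 sequencing libraries from pigs. The genes were chosen by symbol: names of the AMPA, kainate, delta and NMDA receptor subunits, of the metabotropic glutamate receptors, and of the GABA-A and GABA-B receptor subunits, with at least 1 count in 8 or more of the 34 files. Of 31907 genes in the files, 47 matched the naming pattern and 40 also passed the count rule. The 40 comprised 22 glutamate receptor genes, 17 GABA receptor genes and GRID2IP, a postsynaptic scaffold. GRID2IP matched by name only, is no receptor subunit and was kept apart.

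Glutamate and GABA are the main excitatory and inhibitory transmitters of the vertebrate brain. AMPA, kainate and NMDA receptors are tetrameric cation channels opened by glutamate, delta receptors are related synaptic organizers that bind cerebellins, and the metabotropic receptors signal through G proteins. GABA-A receptors are pentameric chloride channels whose subunit make-up sets their kinetics and drug sensitivity, and the GABA-B receptor is an obligate pair of GABBR1 and GABBR2. Different brain regions use different subunits, so that the set of transcripts differs between, for example, cerebellum and cortex.

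The libraries were made with a QuantSeq 3′ kit, which reads each poly(A) transcript once, close to its 3′ end, and came from 18 females and 16 castrated males on 4 feeds. The standard cholecalciferol group, the control (n = 8, 4 females), received 2000 IU of vitamin D3 per kg feed as growers and 1500 IU as finishers. The increased cholecalciferol group (n = 10, 6 females) received 3000 and 2500 IU. The combination group (n = 8, 4 females) received the control dose of cholecalciferol with 1000 IU of 25(OH)D added in both phases. The 25(OH)D group (n = 8, 4 females) received 25(OH)D, the hydroxylated form also called calcidiol, at 2000 and 1500 IU in place of cholecalciferol. All groups received vitamin D in the feed, and the labels give no age.

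The labels name the tissue as muscle, but neuron markers exceeded the muscle markers that were measured. Over 10 neuron markers the mean level was 8.74 ± 0.25 (log2 CPM, SD over 34 libraries), against 6.36 ± 0.64 for the 7 of 12 listed skeletal muscle markers that had a symbol in the files. The other 5, MYLPF, MYH1, MYH4, MYH7 and MB, were not analysed here. The muscle mean lay below the neuron mean in 34 of 34 libraries. The summed neuron markers ran from 4651 to 7659 CPM in the 25(OH)D group, 4890 to 9939 in the standard group, 4911 to 10732 in the increased group and 5555 to 9612 in the combination group. No neuron marker was at 0. The median library held 6.67 M gene counts (M for mega), and the extremes were 1.34 and 30.4 M. The deposited file numbers split by depth, with 4.08 to 13.2 M counts in numbers 1 to 24, 16.8 to 30.4 M in 25 to 29 and 1.34 to 2.69 M in 30 to 34. Of the 5 shallow libraries, 4 belonged to the combination group. Of file numbers 30 to 34, the 4 libraries labelled female had 4.76 to 6.85 CPM of the Y chromosome gene EIF1AY. The 14 other females had 0.531 to 4.77 CPM and the 15 castrated males of other file numbers 0.780 to 18.2 CPM. KDM5D, another Y chromosome gene, had 0.744 to 2.24 CPM in those 4 females and 0 to 1.47 CPM in the other females. It had 4.84 CPM in the castrated male of file numbers 30 to 34 and 1.18 to 6.29 CPM in the other castrated males. Whether samples or reads were mixed between libraries was not tested. Results were therefore also computed without these 5 libraries.

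Levels are in CPM, the count of a gene per M gene counts of its library. Because the kit counts each transcript once, they do not scale with transcript length, although the annotated 3′ end of each gene also bears on its count, and that was not tested. In bulk tissue fewer cells of a type and less RNA per cell cannot be told apart.

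Receptor transcripts formed a broad and fairly constant set. The 39 subunits summed to 2992 ± 382 CPM (SD, n = 34), from 2065 to 3861 CPM. Glutamate receptors made up 52.4% ± 4.69 (SD, n = 34) of that sum. Of the 39 subunits, 35 had counts in all 34 libraries. The mean level was 100 CPM or more for 9 subunits, 10 to 100 CPM for 20 and below 10 CPM for 10.

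By mean level the most abundant subunit was GRIA2, the AMPA receptor subunit whose edited form makes the channel poorly permeable to calcium, at 391 ± 50.9 CPM (SD, n = 34). It was followed by GRM4, a presynaptic group III metabotropic receptor, at 347 ± 294 CPM and by GABRB2, a GABA-A beta subunit, at 310 ± 79.8 CPM. The GABA-B pair stood at 261 ± 60.6 CPM for GABBR1, which binds GABA, and 201 ± 61.9 CPM for GABBR2, which couples to the G protein. The spread of GRM4 was nearly as large as its mean, whereas GRIA2 varied little, from 227 to 469 CPM. By median the order differed, with GRIA2 at 393, GABRB2 at 319, GABBR1 at 257, GABBR2 at 198 and GRM4 at 192 CPM. The order of GRIA2, GRM4 and GABRB2 is therefore not beyond their spread over libraries.

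GABRD, a subunit of extrasynaptic GABA-A receptors, stood at 115 ± 56.0 CPM (SD, n = 34). In other families the most abundant members were GRIN2B at 94.97 ± 45.1 CPM (NMDA), GRM5 at 92.7 ± 33.5 CPM (group I metabotropic), GABRG1 at 71.1 ± 16.7 CPM (gamma), GRIK2 at 49.4 ± 17.8 CPM (kainate), GRM3 at 45.5 ± 12.95 CPM (group II metabotropic) and GRID1 at 31.3 ± 9.83 CPM (delta).

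**Figure D1:**
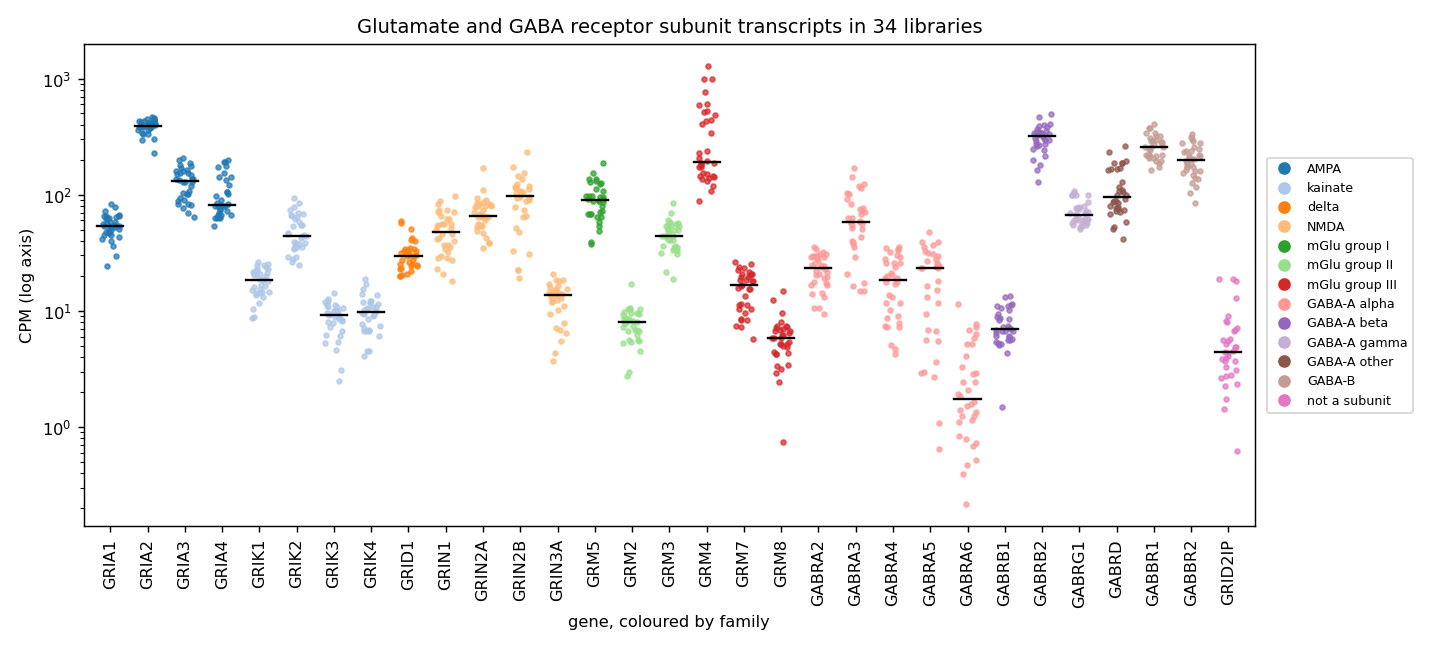
Level of the members reported here with counts in all libraries (CPM, log axis), 1 point per library, a bar at the median, coloured by family. GRIA2 sits in a narrow band from 227 to 469 CPM, while GRM4 spreads from 88.9 to 1284 CPM and GABRA5 from 0.640 to 47.8 CPM.

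Summed by family, AMPA subunits were the steadiest, at 677 ± 67.6 CPM (SD, n = 34) and a range of 449 to 783 CPM. Group III metabotropic receptors varied most, at 369 ± 290 CPM from 114 to 1298 CPM. The families between these were GABA-B at 463 ± 76.5 CPM, GABA-A beta at 400 ± 98.6, GABA-A alpha at 302 ± 77.4, NMDA at 227 ± 75.8, GABA-A gamma at 137 ± 34.9 and group I metabotropic receptors at 114 ± 24.6. Kainate subunits summed to 86.4 ± 17.6 CPM, group II metabotropic receptors to 53.3 ± 13.3 CPM and delta receptors to 46.2 ± 12.04 CPM. GABRD, GABRR1 and GABRP, the other GABA-A subunits, together summed to 117 ± 56.4 CPM, nearly all of it GABRD.

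Several named subunits had few or no counts. Whether their annotated 3′ ends catch the reads was not tested, so that low counts need not mean absent transcripts. GABRE, GABRR3 and GRM6 had 0 counts in all 34 libraries, which allows up to 0.0109 CPM over the 276 M counts together (3 counts, counting error only). GRIN2C, the NMDA subunit of mature cerebellar granule cells, had 8 counts in 2 files. GRIN2D had 1 count in 1 file, GRIN3B 3 counts in 2 files and GABRQ 2 counts in 2 files. These 7 genes fell outside the count rule, while the members nearest to it were GABRP with counts in 9 files, GRIK5 in 19, GABRG3 in 20 and GABRR1 in 30. GABRG3, GABRP and GRIK5 then fell below the expression filter, so that 36 of the 39 subunits and GRID2IP were tested.

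The libraries differed along an axis of transcripts that mark brain regions. A regional score was computed for each as the mean log2 CPM of CBLN1 and CBLN3, cerebellins of cerebellar granule cells, minus that of TBR1 and FEZF2, transcription factors of cortical projection neurons. It ran from 2.41 in increased cholecalciferol replicate 6 to 10.25 in increased cholecalciferol replicate 1, with a median of 3.77. The largest gap between neighbouring scores was 1.02. The 5 shallow libraries of file numbers 30 to 34 lay in the middle, from 5.24 to 6.55. Of the other libraries only 25(OH)D replicate 1 (5.31) and combination replicate 3 (6.22) fell in that stretch. Even the lowest score was above 0, and that library had 118 CPM of CBLN1 and 40.4 CPM of TBR1. A low score therefore does not mean that cerebellar markers were absent. Whether libraries held mixtures of regions or of cell types was not tested. Among other regional markers, 7 of 8 cerebellum markers were higher and 5 of 5 tested forebrain markers lower with the score. Neuron markers went both ways, with 3 of 10 higher and 3 of 10 lower. Of muscle markers 0 of 7 moved with the score, while 4 of 4 tested oligodendrocyte markers and 2 of 6 astrocyte markers were lower. The part of these glial transcripts in the slopes below was not tested.

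Along this score 8 of 36 tested subunits were higher and 19 were lower, against 19.2% of all 13970 genes higher and 18.3% lower (edgeR, adjusted p below 0.05 over all genes tested, n = 34). The shares of subunits were 22.2% higher and 52.8% lower, and 37.5% of all genes moved either way. The share of higher subunits was thus near that of all genes. The median slope of the 36 subunits was -0.08 log2 CPM per unit of score, and that of all genes tested was 0.0035. Without the 5 libraries of file numbers 30 to 34 the counts were 8 higher and 20 lower, against 18.2 and 17% of all genes. The direction of a slope says only at which end of this axis a subunit was higher.

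**Figure D2:**
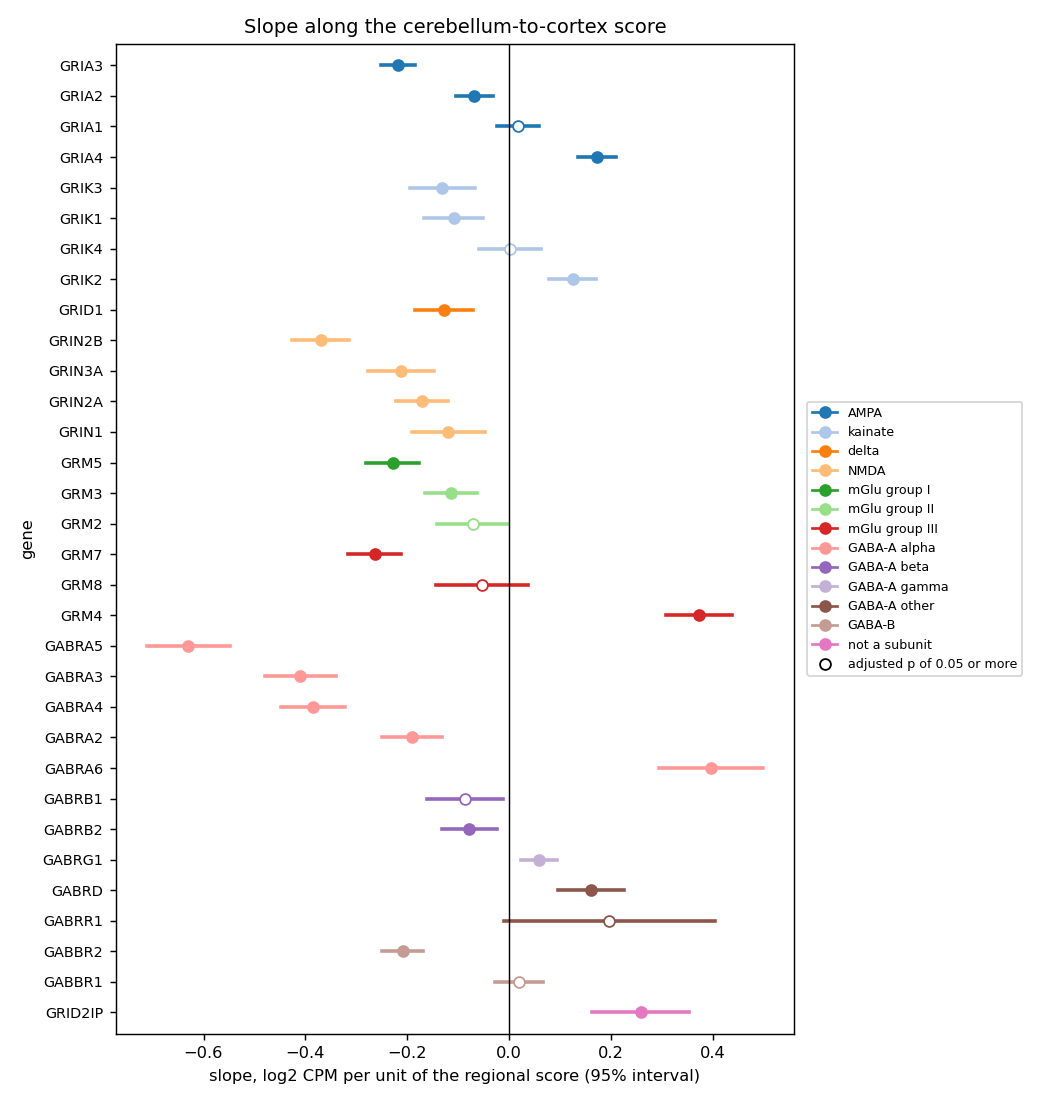
Slope of the tested members reported here along the regional score (log2 CPM per unit of score) with its 95% interval, open points not called. GABRA6 and GRM4 lie farthest to the right, at 0.40 and 0.37, and GABRA5 farthest to the left at -0.63.

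GRM4, which dampens glutamate release from granule cell axons, had a lowest level of 88.9 CPM, a median of 192 CPM and a highest level of 1284 CPM. It stood at 88.9 CPM in the library with the lowest score and 520 CPM in that with the highest. GRM4 had a slope of 0.37 (SE 0.03, edgeR adjusted p = 2.6e-12), a fitted 7.54-fold over the whole score range (95% interval 5.31 to 10.7). Its lowest level was in the library with the lowest score, and its highest in standard cholecalciferol replicate 1, whose score of 10.04 was next to the highest.

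The scaffold GRID2IP ran from 0.616 through a median of 4.44 to 18.9 CPM, with a slope of 0.26 (SE 0.05, edgeR adjusted p = 2.91e-05).

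GABRA6, the alpha subunit confined largely to granule cells in the adult brain, was scarce but steep. It ran from 0.215 through 1.75 to 11.5 CPM, with a slope of 0.40 (SE 0.05, edgeR adjusted p = 4.04e-08). The fitted rise was 8.59-fold over the score range (95% interval 4.92 to 15.0). GABRA6 stood at 1.64 CPM in the library with the lowest score and 7.21 CPM in that with the highest. GABRD, its usual partner in extrasynaptic receptors of granule cells, ran from 41.9 through 95.5 to 262 CPM with a smaller slope of 0.16 (SE 0.03, adjusted p = 0.00011). The AMPA subunit GRIA4, of fast-gating channels, ran from 54.1 through 82.1 to 198 CPM with a slope of 0.17 (SE 0.02, adjusted p = 7.02e-10). The kainate subunit GRIK2 ran from 24.6 through 44.3 to 93.8 CPM with a slope of 0.12 (SE 0.02, adjusted p = 3.46e-05). GABRG1 was the weakest of the 8, from 50.4 through 66.2 to 108 CPM, at 0.059 (SE 0.017, adjusted p = 0.0064). Its call was lost without the 2 libraries farthest from the median score, increased cholecalciferol replicate 1 and standard cholecalciferol replicate 1 (adjusted p = 0.0604), where the slope was 0.055, the lowest of 0.055 to 0.075 over the alternatives other than leaving out 1 library.

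GABRA5, which carries tonic inhibition in hippocampus and deep cortex, ran from 0.640 through a median of 23.5 to 47.8 CPM. It fell from 35.3 CPM in the library with the lowest score to 3.64 CPM in that with the highest, with a slope of -0.63 (SE 0.04, edgeR adjusted p = 1.2e-15) and a fitted fall of 30.6-fold over the score range. GABRA3 ran from 14.7 through 58.7 to 170 CPM with a slope of -0.41 (SE 0.03, adjusted p = 1.52e-12, 9.29-fold). GABRA4, often found with GABRD in forebrain, ran from 4.23 through 18.3 to 35.5 CPM with a slope of -0.39 (SE 0.03, adjusted p = 3.94e-13, 8.13-fold). GABRA2 ran from 9.47 through 23.3 to 35.1 CPM with a slope of -0.19 (SE 0.03, adjusted p = 1.25e-06, 2.83-fold). These folds are fitted over all libraries. The libraries with the lowest and the highest score had 82.7 and 14.8 CPM of GABRA3, and 35.5 and 7.36 CPM of GABRA4. For GABRA2 they had 24.6 and 14.3 CPM, each a smaller fall than fitted. The library with the lowest score held the highest GABRA4 level of all 34.

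All 4 tested NMDA subunits were lower with the score. GRIN2C, GRIN2D and GRIN3B fell outside the count rule, so that their direction is not known. GRIN2B, which gives slow, calcium-rich currents and is prominent in forebrain, ran from 19.3 through 97.6 to 232 CPM. Its slope was -0.37 (SE 0.03, edgeR adjusted p = 7.77e-14), or a fitted 7.45-fold. It stood at 106 CPM in the library with the lowest score and 22.6 CPM in that with the highest. GRIN3A, a glycine-binding subunit that lowers calcium entry, ran from 3.71 through 13.7 to 20.7 CPM with a slope of -0.21 (SE 0.03). GRIN2A, of faster receptors, had a slope of -0.17 (SE 0.03) and GRIN1, the subunit every NMDA receptor needs, -0.12 (SE 0.04, adjusted p = 0.00664). The slope of GRIN1 was not visible in the end libraries themselves, which had 49.5 CPM at the lowest score and 54.4 CPM at the highest.

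Most metabotropic receptors other than GRM4 were lower with the score or not called. In group I, GRM5, the receptor of many forebrain neurons, ran from 37.7 through 89.96 to 186 CPM with a slope of -0.23 (SE 0.03, edgeR adjusted p = 1.97e-09). In group III, GRM7, a presynaptic receptor of active zones, ran from 5.77 through 16.5 to 26.1 CPM with -0.26 (SE 0.03, adjusted p = 4.67e-11), opposite to GRM4, and GRM8 was not called at -0.05 (SE 0.04). In group II, GRM3 had -0.11 (SE 0.03, adjusted p = 0.000433) and GRM2 was not called at -0.07 (SE 0.03, adjusted p = 0.101).

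The AMPA and kainate families also held both directions. GRIA3 ran from 63.7 through 132 to 207 CPM with a slope of -0.22 (SE 0.02, edgeR adjusted p = 9.64e-14), and GRIA2 had one of -0.07 (SE 0.02, adjusted p = 0.00207), while GRIA1 was not called at 0.02 (SE 0.02). GRIK3 had -0.13 (SE 0.03, adjusted p = 0.00103) and GRIK1 -0.11 (SE 0.03, adjusted p = 0.00215), while GRIK4 was at 0.0023 (SE 0.030) and not called. GRID1, the delta receptor of forebrain, had -0.13 (SE 0.03, adjusted p = 0.000404).

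Of the GABA-B pair only GABBR2 was called, from 85.2 through 198 to 331 CPM, at -0.21 (SE 0.02, edgeR adjusted p = 3.62e-11), and GABBR1 was at 0.02 (SE 0.02, adjusted p = 0.571). The beta subunit GABRB2 had -0.08 (SE 0.03, adjusted p = 0.0178), and GABRB1 was not called at -0.09 (SE 0.04, adjusted p = 0.0597). The GABRB2 call was lost in file numbers 1 to 24 alone (adjusted p = 0.181) and without increased cholecalciferol replicate 8 (adjusted p = 0.0560). GABRR1, a rho subunit, was not called at 0.20 (SE 0.10).

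**Figure D3:**
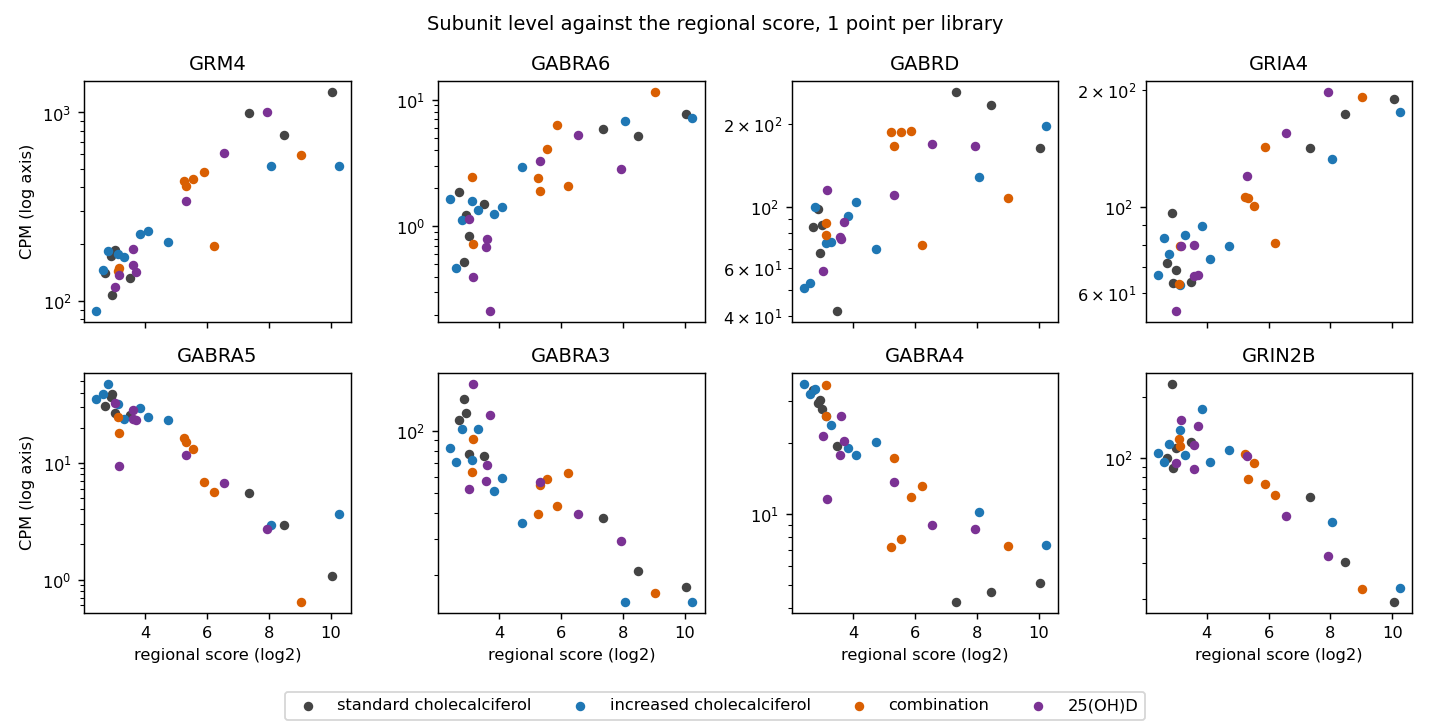
Level of selected subunits (CPM, log axis) against the regional score, 1 point per library, coloured by diet. GRM4, GABRA6, GABRD and GRIA4 climb with the score while GABRA5, GABRA3, GABRA4 and GRIN2B decline, and the 4 diets overlap along the axis.

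Ratios between related subunits within a library need no scaling between libraries. GRIN2B exceeded GRIN2A in 28 of 34 libraries, with a median ratio of 1.35, from 0.319 to 2.38. GRIA4 exceeded GRIA3 in 11 libraries, with a median ratio of 0.580, from 0.376 to 2.99. GABRA6 exceeded GABRA5 in 7 libraries, with a median ratio of 0.0594 and a range of 0.00917 to 18.0. GABBR1 exceeded GABBR2 in 23 libraries, with a median ratio of 1.27. The low-expressed partner had as few as 1 count (GABRA6) or 5 counts (GABRA5) in a library, so that the ends of that ratio are imprecise.

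The make-up of the families differed between the ends of the axis. GABRA5 supplied 9.52% of alpha subunit counts in the library with the lowest score (95% Wilson interval 8.25 to 11.0) and 1.48% in that with the highest (1.12 to 1.96). Among the NMDA subunits that passed the count rule, which leaves out GRIN2C, GRIN2B supplied 43.2% (40.4 to 46.0) and 17.6% (15.8 to 19.5). Among AMPA subunits GRIA4 supplied 9.99% (9.01 to 11.1) and 26.6% (25.7 to 27.5). Over all 34 libraries the median share of GRIN2B was 42.5%, from 16.3 to 54.0%, and of GRIA4 11.9%, from 8.43 to 27.9%. The intervals cover counting error only, since reads without molecular identifiers are not independent molecules.

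**Figure D4:**
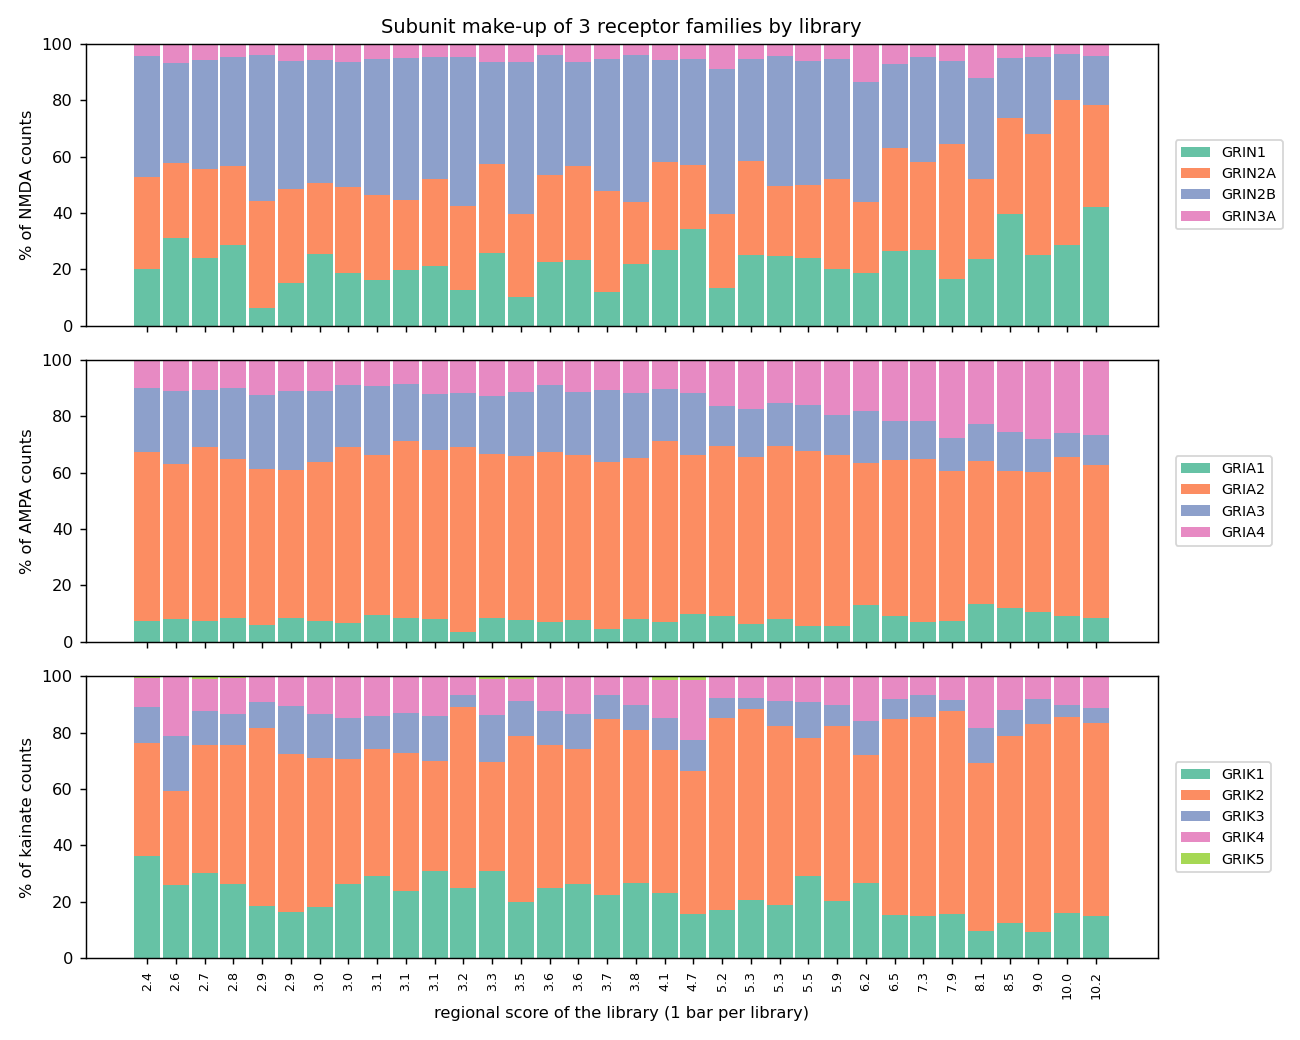
Share of each subunit (percent of its family's counts) in 3 receptor families, 1 bar per library in order of the regional score. GRIN2B takes 43.2% of NMDA subunit counts in the library with the lowest score and 17.6% in that with the highest, and GRIA4 9.99 and 26.6% of AMPA subunit counts.

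The signs of the slopes were the same within diets. All 27 called subunits had the same sign in the libraries of each of the 4 diets taken alone. The call itself was reached by fewer: 7 higher and 11 lower in the standard group (8.88 and 10.4% of all genes), 6 and 13 in the increased group (5.18 and 6.44%), 2 and 8 in the combination group (0.888 and 1.91%) and 4 and 5 in the 25(OH)D group (1.8 and 2.4%). These fits had 8 to 10 libraries each, against 34. An interaction of score and diet was called for 0 of 13970 genes (0%), of which 457 (3.27%) had an unadjusted p below 0.05. Among the 36 tested subunits and GRID2IP, 4 did. The smallest unadjusted p was that of GRM4, at 0.00214 (edgeR, adjusted p = 0.999). The GRM4 slope ran from 0.23 in the increased group to 0.55 in the 25(OH)D group.

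Genes of proteins that accompany the receptors also held both directions. Of 33 auxiliary subunits and scaffolds with a symbol, 28 were tested, and 4 (14.3%) were higher and 14 lower with the score, against 19.2% and 18.3% of all genes. The lower ones with the smallest p were CACNG3, a TARP partner of AMPA receptors in forebrain (-0.44, SE 0.03), SHISA9, another AMPA receptor partner (-0.30, SE 0.03), and NETO1, a kainate and NMDA receptor partner (-0.39, SE 0.04). The higher ones were NRXN3, a presynaptic adhesion protein (0.13, SE 0.02), NETO2, a kainate receptor partner (0.09, SE 0.02), KCTD8, a GABA-B receptor partner (0.23, SE 0.07), and GRID2IP. Of 16 tested genes of transmitter synthesis and transport, 3 (18.8%) were higher and 5 (31.2%) lower, the share of higher ones being near that of all genes. The higher ones were SLC1A6, the glutamate transporter of Purkinje cells (0.21, SE 0.03), SLC38A1, a glutamine carrier (0.14, SE 0.02), and SLC32A1, which fills vesicles with GABA (0.08, SE 0.03). The lower ones included SLC1A2, the main astrocyte glutamate transporter (-0.27, SE 0.04), SLC1A1 (-0.22, SE 0.03) and the GABA transporter SLC6A11 (-0.19, SE 0.04).

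The diets were compared first by the dose of vitamin D3, 3000 and 2500 against 2000 and 1500 IU per kg. Between the increased and the standard group 0 of 36 subunits differed after adjustment, as did 0% of all 13974 genes by edgeR, and DESeq2 and limma-voom also called 0. An unadjusted p below 0.05 was reached by 6 subunits (GRIN1, GRID1, GRM4, GABRB1, GRIK2 and GABBR1), or 16.7%, against 7.77% of all genes. The obligatory NMDA subunit GRIN1 ran from 22.8 through a median of 39.9 to 65.2 CPM in the standard group and from 31.8 through 72.3 to 98.3 CPM in the increased group. The groups overlapped, and the difference was 0.62 log2 (SE 0.25, edgeR adjusted p = 0.623). GRID1 ran from 22.7 through 36.5 to 57.5 CPM on the standard and from 19.9 through 26.2 to 42.5 CPM on the increased dose, overlapping, with a difference of -0.49 (SE 0.22, adjusted p = 0.623), which ran from -0.77 to -0.33 over the alternatives. The 95% interval lay within a 2-fold change either way for 26 of 36 subunits.

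The second question was whether 25(OH)D added to the standard feed changed the subunits. Between the combination and the standard group 0 of 36 differed (0% of all genes by edgeR, and 0 by DESeq2 and limma-voom). GRID1 alone had an unadjusted p below 0.05, against 4.34% of all genes. It ran from 20.3 through 29.9 to 34.5 CPM in the combination group, overlapping the standard group, with a difference of -0.51 (SE 0.23, adjusted p = 0.999). GRIN2A ran from 48.6 through 64.7 to 170 CPM in the standard group and from 35.05 through 54.6 to 80.6 CPM in the combination group, also overlapping, at -0.49 (SE 0.25, adjusted p = 0.999). The interval lay within 2-fold for 26 of 36 subunits. The combination group held 4 of the 5 shallow libraries, and over the alternatives that include leaving these out, the GRID1 difference ran from -1.17 to -0.24 and the GRIN2A difference from -0.94 to -0.28.

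The third comparison set the 2 forms of the vitamin against each other at the same dose of 2000 and 1500 IU. Cholecalciferol and 25(OH)D differ by a hydroxyl group that the liver normally adds. Between the 25(OH)D and the standard group 0 of 36 subunits differed (0% of all genes by edgeR, and 0 by DESeq2 and limma-voom), and 0 had an unadjusted p below 0.05, against 3.23% of all genes. GRIK3, a presynaptic kainate subunit, ran from 5.37 through 9.59 to 11.3 CPM on cholecalciferol and from 2.50 through 6.48 to 10.1 CPM on 25(OH)D, overlapping, at -0.42 (SE 0.25, 95% interval -0.93 to 0.08, adjusted p = 1.00). Over the alternatives the GRIK3 difference ran from -0.67 to -0.28. For 28 of 36 subunits the interval excluded a 2-fold difference between the forms, and for the other 8 it did not.

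Adding 1000 IU of either form to the control dose gave the combination and the increased group. Between them 0 of 36 subunits differed (0% of all genes by edgeR, and 0 by DESeq2 and limma-voom), and GRIN1 and GABRB1 had an unadjusted p below 0.05, against 4.14% of all genes. GRIN1 ran from 20.6 through 38.4 to 55.7 CPM in the combination group, against the 31.8, 72.3 and 98.3 CPM given above for the increased group, a difference of -0.82 (SE 0.25, 95% interval -1.33 to -0.31, adjusted p = 0.931). The ranges overlapped between 31.8 and 55.7 CPM. GRID2IP, the scaffold, ran from 2.33 through 6.77 to 18.9 CPM in the combination group and from 0.616 through 4.60 to 5.74 CPM in the increased group, overlapping, at 0.93 (SE 0.42, adjusted p = 0.931), and 0.50 with the regional score in the model. The interval lay within 2-fold for 25 of 36 subunits.

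The remaining 2 comparisons involve feeds that differ in both form and dose. Between the 25(OH)D and the increased group 0 of 36 subunits differed (0% of all genes by edgeR, and 0 by DESeq2 and limma-voom), with 4 at an unadjusted p below 0.05 (GRIK4, GRIA1 and GRIK3 among them), against 11.97% of all genes. GRIK4, a kainate subunit, ran from 6.77 through 11.7 to 18.7 CPM in the increased group and from 4.08 through 8.39 to 10.7 CPM in the 25(OH)D group (-0.54, SE 0.19, adjusted p = 0.306). The groups overlapped, and the interval lay within 2-fold for 26 of 36 subunits.

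Between the 25(OH)D and the combination group 0 of 36 subunits differed (0% of all genes by edgeR, and 0 by DESeq2 and limma-voom), and GRIN2A and GABRA6 had an unadjusted p below 0.05, against 7.57% of all genes. GRIN2A, of fast NMDA receptors, ran from 35.05 through 54.6 to 80.6 CPM in the combination group and from 52.2 through 81.7 to 110 CPM in the 25(OH)D group (0.61, SE 0.25, adjusted p = 0.653). GABRA6 ran from 0.725 through 2.43 to 11.5 CPM and from 0.215 through 0.969 to 5.22 CPM (-1.23, SE 0.60, adjusted p = 0.655), and its difference ran from -1.92 to -0.75 over the alternatives, the latter with the regional score in the model. The groups overlapped in both genes, and the interval lay within 2-fold for 25 of 36 subunits. The 6 diet comparisons share libraries, so that the values of GRIN1, GRID1 and GRIN2A that recur in them are not separate evidence.

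**Figure D5:**
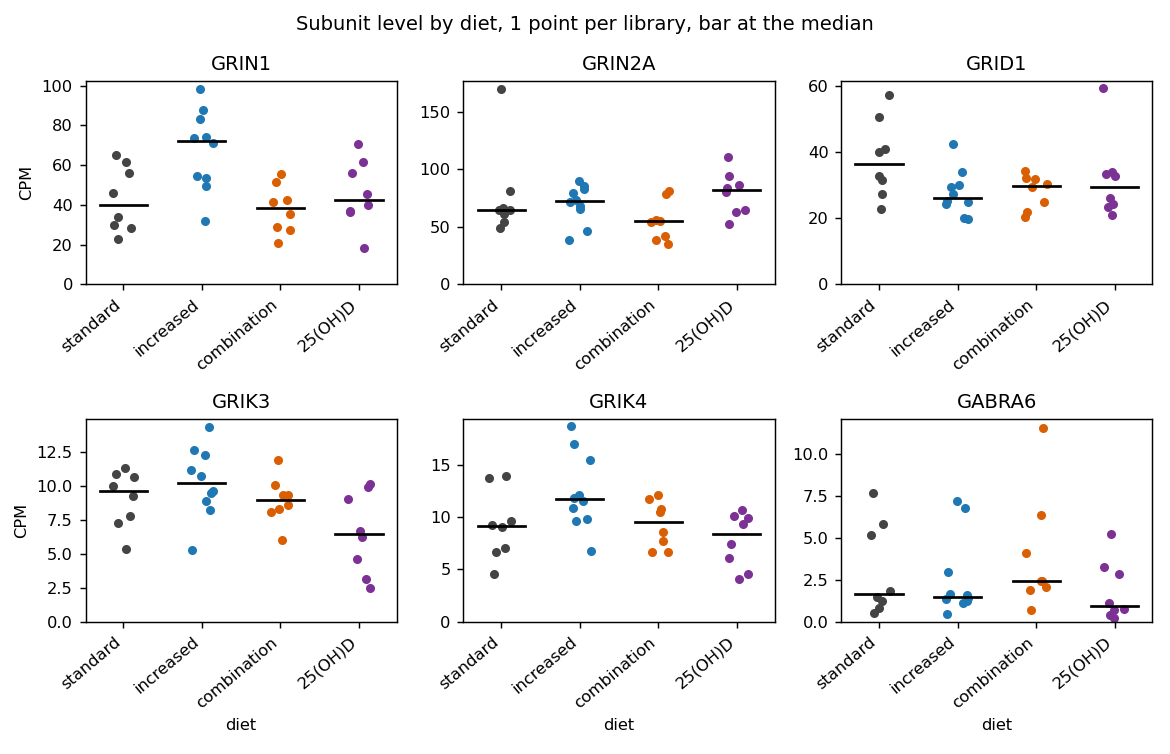
Level of 6 subunits named in the diet comparisons (CPM), 1 point per library in each diet, with a bar at the median. GRIN1 has its highest median, 72.3 CPM, in the increased cholecalciferol group, against 38.4 to 42.6 CPM in the other 3, and all groups overlap.

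Muscle marker transcripts were present in every diet. The sum of the 7 markers ran from 945 to 4772 CPM in the standard group (median 2227) and 1567 to 4162 in the increased group (median 2843). It ran from 1878 to 6918 in the combination group (median 3950) and 1950 to 5869 in the 25(OH)D group (median 2750). Against the standard group, 7 of 7 markers were higher in the combination group (median 0.76 log2) and in the 25(OH)D group (0.61). In the increased group 6 of 7 were higher (0.44). After adjustment 0 of 7 were called in any comparison. With the muscle markers as a covariate, 0 members were called in each of the 6 comparisons.

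The regional score itself spanned a wide range in every diet. It ran from 3.01 to 7.93 (median 3.65) in the 25(OH)D group and 3.12 to 9.02 (median 5.43) in the combination group. In the increased group it ran from 2.41 to 10.25 (median 3.57) and in the standard group from 2.71 to 10.04 (median 3.25). The combination group, which held 4 of the 5 shallow libraries, thus had the highest median. With the score added to the model 0 of 36 subunits were called in the 6 comparisons, and the numbers at an unadjusted p below 0.05 were 5, 3, 2, 3, 8 and 4 in the order given here. Of all genes under the same model, 9.85, 6.01, 4.37, 3.91, 15.8 and 8.3% had such a p. The median absolute difference of the members fell, for example from 0.28 to 0.15 log2 between the combination and the increased group and from 0.30 to 0.28 between the 25(OH)D and the increased group. Of the auxiliary subunits and scaffolds and of the genes of transmitter synthesis and transport, 0 of 28 and 0 of 16 were called in each diet comparison.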

How the data were processed

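The authors deposited raw counts per gene, 1 file per library, with no normalization. The tools named per the submitters' processing notes are HTSeq, TopHat, FastQC and DESeq2. Tool versions, build, annotation and strand setting: not given in the sources used here. Each file's 5 HTSeq category lines were left out; of all reads in a file, 16.4 to 29.9% lay outside features, 3.63 to 4.68% were ambiguous and 11.2 to 20.7% aligned to several places, so genes with near-identical copies are undercounted. Symbols matched 15029 of 31907 identifiers.

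Fits used R 4.3.3 with edgeR 4.0.16 (TMM scaling, expression filter by diet, glmQLFit and glmQLFTest) over all 34 libraries with diet and sex in the model, plus the regional score (count + 0.5 before logs, its 4 genes left out of the test) for slopes. Two-sided p-values were Benjamini-Hochberg adjusted over all genes tested. Intervals used a t distribution with the degrees of freedom of each gene and fit (median 38.7 in the slope fit). Alternatives used DESeq2 1.42.0, limma 3.58.1 (voom), other scalings, filters, covariates and subsets of libraries. The code was tested on simulated data. The series description counts individuals, so p-values are taken to measure the spread between animals.

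Values are given in full for up to 10 members per direction with the largest called slopes, the most abundant member of each family and the 2 members with the smallest p per diet comparison; other tested members are given by slope. The members and lists were chosen with earlier results of these data known. Slopes within diets and the interaction with diet were added after seeing the data. Results for a few members are not reported here, and sequences and coordinates were not used.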

Additional observations from a re-analysis of the deposited data

Results flagged for a closer look

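A library was singled out where its gap to the nearest library of its diet was above the 95% critical value of Dixon's test. Chance flags about 1 in 20 groups, and 7 of the 104 groups examined (26 named members in 4 diets) were flagged. Standard cholecalciferol replicate 3 stood apart in 2 NMDA subunits, with 232 CPM of GRIN2B against 19.3 to 119 CPM in the other 7 libraries and 170 CPM of GRIN2A against 48.6 to 80.9 CPM. Combination replicate 1, whose regional score of 9.02 was the highest of its diet, stood apart with 18.93 CPM of GRID2IP against 2.33 to 9.07 CPM. GRID2IP was also high in 25(OH)D replicate 2, the library with the highest score of that diet, at 18.93 CPM against 1.43 to 8.21 CPM. The other flags were the lowest GRIA2 level, 227 CPM in combination replicate 3 against 343 to 441 CPM, a GRID1 level of 59.6 CPM in 25(OH)D replicate 4 against 20.9 to 34.1 CPM, and a GRM3 level of 84.6 CPM in increased cholecalciferol replicate 7 against 36.1 to 59.9 CPM.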

How the results depend on the processing

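Along the regional score the number of subunits called higher was 7 to 9 and the number called lower 17 to 22 over 13 alternatives, against 8 and 19. Of all genes, 21.1% (no expression filter) to 41.9% (limma-voom) were called either way over these alternatives, against 37.5%. Leaving out each library in turn gave 8 and 8 as the lowest and highest numbers called higher, and 18 and 20 for lower. Of all genes, 33.7 to 38.3% were then called either way. Fits to the libraries of a single diet were chosen after seeing the data. The standard libraries gave 7 higher and 11 lower (8.88 and 10.4% of all genes). The increased libraries gave 6 and 13 (5.18 and 6.44%). The combination libraries gave 2 and 8 (0.888 and 1.91%), and the 25(OH)D libraries 4 and 5 (1.8 and 2.4%). These fits hold fewer samples. Under the 11 alternatives run for each of the 6 diet comparisons 0 members were called, against at most 0.0536% of all genes. The smallest adjusted p of a named member was 0.191. No slope that was called reversed. Among slopes not called, GABBR1 changed sign to -0.01 and GRM8 to 0.0025 with neuron markers as a covariate, and GRIK4, at 0.0023, ran from -0.012 to 0.020. In single diets GABBR1 and GRM8 had the opposite sign in 1 of 4, and GRIK4 and GRIA1 in 2 of 4. No paired analysis was possible because the labels give no replicate numbers, and the numbers printed here follow accession order and pair no libraries. Depth limits the scarce subunits: GABRA6 had as few as 1 count in a library and GRM8 as few as 2.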

Other observations

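The regional score did not describe every library. In 25(OH)D replicate 3, with a score of 3.15, GABRA3 supplied 56.0% of the alpha subunit counts (95% Wilson interval 54.0 to 58.0), the highest share of the 34 libraries. Of the 35 subunits with counts in every file, this library held the lowest level of 7 (GRIA1, GABRB2, GRIK3, GRIK4 and GRM3 among them) and the highest of 2, GABRA3 at 170 CPM and GABBR1 at 408 CPM. It was not shallow, with 7.60 M counts. Standard cholecalciferol replicate 3 held the highest level of 5 subunits (GRIA3, GRIN2A, GRIN2B, GRM5 and GRM2). Combination replicate 1 held the lowest of 5 (GABRA2, GABRA5, GRIN2A, GRIN3A and GRIK1) and the highest of 2. These libraries were singled out after their values were seen.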
